A study of Bos taurus with 36 samples.

Results

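Gene expression in fetal liver was compared between cattle pregnancies of different transfer timing, in male fetuses recovered at Day 42. All embryos were 7 days old at transfer. The ET_D7 recipients stood at Day 7 of the oestrous cycle, so embryo and uterus were at the same stage. The ET_D9 recipients stood at Day 9, because their synchronization had begun earlier, so the uterus was ahead of the embryo on the common day of transfer. The whole study holds 36 libraries from heart, gonads, liver and maternal blood, and 8 of them are from liver, 5 of ET_D7 and 3 of ET_D9. No genotype, drug or other treatment distinguishes the groups in the labels.

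Numbers from 1 (lightest) to 10 (heaviest) name the fetuses in order of weight. The ET_D7 livers came from fetuses 1, 2, 3, 4 and 5, which weighed 1.253 g, 1.293 g, 1.346 g, 1.355 g and 1.37 g. The ET_D9 livers came from fetuses 8, 9 and 10, which weighed 1.565 g, 1.659 g and 1.69 g. Every ET_D9 fetus was therefore heavier than every ET_D7 fetus, and the effects of transfer day and of fetal weight cannot be told apart in these livers. The 10 fetuses had been picked for divergent weight, and 2 liver samples were discarded after RNA quality control.

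The genes compared were those with at least 10 counts in at least 4 liver libraries, without the genes that held 2 counts or fewer in some liver libraries and 300 or more in all the others. Of 35092 genes in the count table, 22416 had a count in a liver library, 16605 passed the first condition and 53 of these were left out by the second, so 16552 were tested. The first condition treats the groups unequally. A gene detected in all 5 ET_D7 livers and in no ET_D9 liver can pass, whereas a gene detected only in the 3 ET_D9 livers cannot. Total counts ran from 18231089 to 34454772 per liver library and overlapped between the groups. A count of 0 in a liver library still allows up to 3 counts, or 0.0871 to 0.165 CPM (counts scaled to a common library size), which covers counting error only.

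The fetal liver is the main blood-forming organ of mid-gestation. Hepatoblasts, the precursors of hepatocytes and bile duct cells, already secrete plasma proteins there, while erythroblasts, megakaryocytes and macrophages mature between them. Ruminant red cells pass from embryonic globins to fetal globin as blood formation moves from the yolk sac to the liver. The 17 hepatocyte markers were all tested, and the serum proteins SERPINA1 and ALB stood at 11300 to 27500 CPM and 721 to 1860 CPM over the 8 libraries. The erythroid transcription factor KLF1 stood at 378 to 873 CPM. The labelled tissue was thus matched by its defining genes. In a bulk organ, fewer cells of a type and less RNA per cell cannot be told apart.

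The 8 liver columns did not behave as 8 separate samples. Across 13841 genes, the columns of fetuses 1 and 2 differed by 0.257 of the variance expected from counting alone, taken from the median over genes. The other 27 pairs of liver columns differed by 7.814 to 101.635 times that variance. Some genes still separated fetuses 1 and 2, since the chi-square over all genes was 4.117 times its degrees of freedom. For the other pairs it was 55.794 to 363.706 times. The column of fetus 9 was matched by 0.383 times the counts of fetus 8 plus 0.526 times those of fetus 10, with a residual of 0.209 of the counting variance and 91.13% of genes within 1 counting SD. The same residual for fetuses 3, 4, 5, 8 and 10 was 13.38 to 64.59. Fetuses 1 and 2 were therefore averaged as 1 sample and fetus 9 was left out of the main test, which left 4 ET_D7 samples and 2 ET_D9 samples. The result with all 8 columns as separate samples is given beside the main counts, although it counts related columns as if they were independent. Values of fetus 9 are printed below but add no separate observation of ET_D9. The cause of these relations between columns was not tested.

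ET_D9 livers differed from ET_D7 livers in 188 genes at an adjusted p-value under 0.05 (edgeR's quasi-likelihood test on the counts). Only 4 genes, 0.0242% of those tested, were higher in ET_D9, and 184 genes, 1.11%, were lower. Among the lower genes, 161 held 2 counts or fewer in every ET_D9 library and 14 held more than 2 counts in all 8 libraries. These 161 genes passed the condition on low counts only through the ET_D7 livers, where they are high. Their calls are therefore no support for a difference. All 4 higher genes held more than 2 counts in every library. At an unadjusted p-value under 0.05 there were 307 higher genes (1.85%) and 994 lower genes (6.01%). With all 8 columns as separate samples, 74 genes were higher (0.447%) and 536 lower (3.24%), and all 4 higher and 175 of the 184 lower genes were called in both fits. That fit counts related columns as independent and shares its data with the main fit, so it adds no support to these calls. The median log2 fold change over all genes tested was 0.011.

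The imbalance between higher and lower called genes came in large part, but not wholly, from genes with a step in their counts. A step is defined here as 2 counts or fewer in some liver library and at least 30 in all the others. Of the 184 lower genes, 158 were such step genes. With all step genes left out of the fit, 6 genes were higher and 21 lower, against 355 and 783 at an unadjusted p-value under 0.05 (edgeR). In this edgeR fit lower genes thus still outnumbered higher ones, although the condition on low counts still treats the groups unequally. By limma-voom on all genes tested, the order was the reverse at an unadjusted p-value under 0.05, as given below. Without a test and with step genes included, the groups did not overlap in CPM for 1054 genes higher in ET_D9 (6.37%). The same held for 1592 genes lower in ET_D9 (9.62%). When every gene with 2 counts or fewer in a liver library was left out, 23 genes were higher and 96 lower. The calls also rested on few samples. Without fetus 8, 0 genes were higher and 91 lower by edgeR, against 434 and 1114 at an unadjusted p-value under 0.05, and by limma-voom 0 genes passed in either direction, against 532 and 484 unadjusted, while DESeq2 called 25 higher and 549 lower.

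**Figure D1:**
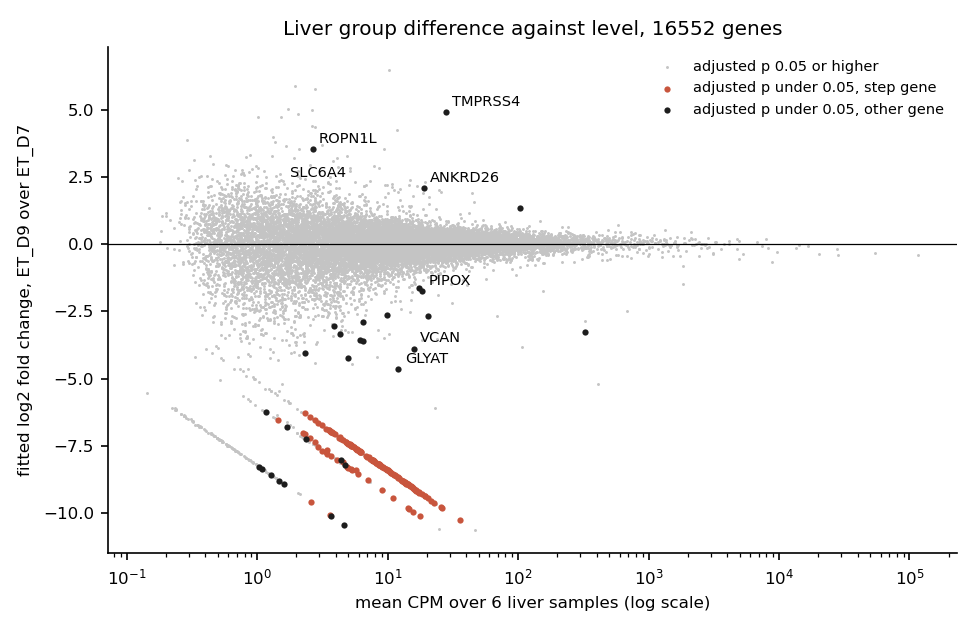
Each point is 1 of the genes tested in liver, with its mean CPM over the 6 independent samples on the horizontal axis (log scale) and its fitted log2 fold change, ET_D9 over ET_D7, on the vertical axis. Grey points did not pass, and of the genes with an adjusted p-value under 0.05 red points are step genes, 158 in all and all negative, and black points are other genes.

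The clearest higher gene with a symbol was ANKRD26 (Entrez 533620), which encodes an ankyrin repeat protein known from inherited thrombocytopenia. It stood at 8.32, 7.95, 8.07, 10.6 and 10.8 CPM in fetuses 1 to 5 and at 40.0, 37.7 and 36.5 CPM in fetuses 8, 9 and 10. The groups were far apart. Fetus 9, whose column is a weighted sum of those of fetuses 8 and 10, says nothing separate about the spread within ET_D9. Its log2 fold change was 2.09 (standard error 0.279, adjusted p = 0.00285, edgeR). It kept its call without any 1 of the ET_D7 libraries, and its log2 fold change ran from 1.98 to 2.17 over the 7 fits that left out 1 library. In the fits without fetus 1 or fetus 2 the other column of that pair stayed in, so these fits test little. Without fetus 8 or fetus 10, 1 ET_D9 sample was left, and the call was lost without fetus 8.

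ROPN1L (Entrez 515565), named for its likeness to ropporin, is a protein of the sperm flagellum that binds A-kinase anchoring proteins. Its levels were 0.123, 0.151, 1.15, 0.370 and 0.764 CPM in the ET_D7 livers, from 3, 4, 23, 6 and 29 counts. In fetuses 8, 9 and 10 they were 5.48, 7.16 and 8.11 CPM, from 189, 171 and 165 counts. All ET_D9 livers were thus above all ET_D7 livers, at low absolute levels. The log2 fold change was 3.53 (standard error 0.717, adjusted p = 0.0472, edgeR), and leaving out any 1 of the 7 libraries in the fit moved the adjusted p to between 0.0527 and 0.331. In the heart, ROPN1L had 14 to 25 counts in 5 ET_D7 fetuses and 6 to 23 counts in 4 ET_D9 fetuses. The group difference in liver exceeded that in heart by 4.33 on the log2 scale (standard error 0.981, adjusted p = 0.0132, edgeR), but against the gonads the difference of 2.31 did not pass (adjusted p = 0.319, edgeR).

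TMPRSS4 (Entrez 513343), a transmembrane serine protease, had the largest fitted change among the 4 higher genes, and it rested on 1 sample. Its CPM was 2.51, 2.73, 1.85, 2.59 and 3.87 in the ET_D7 livers, 154 in fetus 8, 88.4 in fetus 9 and 2.95 in fetus 10. Fetus 10 lay within the ET_D7 range. The log2 fold change was 4.90 (standard error 0.960, adjusted p = 0.0380, edgeR) and 0.14 without fetus 8 (adjusted p = 0.978, edgeR). The fourth higher gene, Entrez 100847567, carries no symbol in the annotation used and stood at 54.1 to 91.3 CPM in ET_D7 and 153 to 186 CPM in ET_D9. It lost its call in 5 of the 7 fits that left out 1 library, with an adjusted p of up to 0.193 (edgeR).

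SLC6A4 (Entrez 282365) encodes the serotonin transporter, which takes serotonin back into cells and loads it into platelets. It had 9, 9, 20, 10 and 36 counts in fetuses 1 to 5, and 87, 77 and 85 counts in fetuses 8, 9 and 10. The groups did not overlap, and the ET_D9 levels ran from 2.52 to 4.18 CPM. Its log2 fold change of 2.25 (standard error 0.692) did not pass after adjustment (adjusted p = 0.252, edgeR). With all 8 columns the adjusted p was 0.0340 (edgeR), but that fit counts related columns as separate samples. In the gonads its range was 0.353 to 0.782 CPM in ET_D7 and 0.814 to 1.23 CPM in ET_D9. The difference there did not pass (log2 fold change 0.88, adjusted p = 0.923, edgeR). In the heart the groups overlapped, at 0 to 0.842 CPM in ET_D7 and 0.478 to 1.21 CPM in ET_D9.

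**Figure D2:**
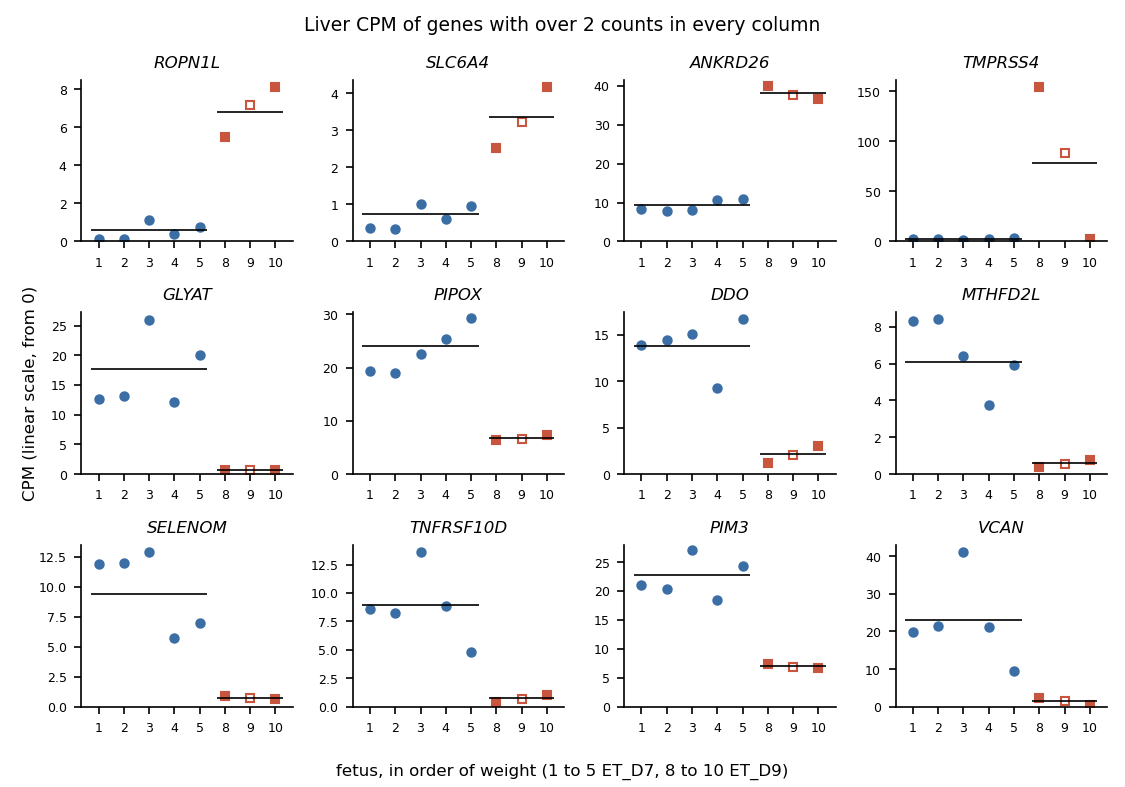
CPM in liver (vertical axes, linear and from 0) for 12 genes with more than 2 counts in every library, by fetus in order of weight. Blue circles are ET_D7, red squares ET_D9, the open square is fetus 9, which was not in the main test, and lines are group means over independent samples. TMPRSS4 in fetus 10 lies with the ET_D7 fetuses, while in the other 11 genes the groups do not overlap.

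Of the 14 lower genes with more than 2 counts in every library, 4 encode enzymes of varied pathways. GLYAT (Entrez 281787), the mitochondrial enzyme that joins acyl groups to glycine, had 309, 345, 519, 196 and 759 counts in the ET_D7 livers and 23, 16 and 14 counts in the ET_D9 livers. The levels were 0.667 CPM in fetus 8 and 0.688 CPM in fetus 10, against 12.1 CPM in the lowest ET_D7 liver. Fetus 9, a weighted sum of fetuses 8 and 10, stood at 0.670 CPM. Its log2 fold change was -4.64 (standard error 0.532, adjusted p = 0.00120, edgeR), and it kept its call without any 1 of the ET_D7 libraries. Over the 7 fits that left out 1 library, the log2 fold change ran from -4.80 to -4.42. No heart library held a count of GLYAT, and the gonads held 6 to 17 counts.

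PIPOX, the peroxisomal oxidase of pipecolic acid and sarcosine, had 18.9 to 29.3 CPM in ET_D7 and 6.33 to 7.32 CPM in ET_D9 (log2 fold change -1.76, adjusted p = 0.0292, edgeR). DDO, the peroxisomal oxidase of D-aspartate, had 9.24 to 16.7 CPM and 1.22 to 3.05 CPM (-2.65, adjusted p = 0.0383, edgeR). MTHFD2L, a mitochondrial enzyme of folate metabolism, had 3.76 to 8.41 CPM and 0.377 to 0.786 CPM (-3.35, adjusted p = 0.0358, edgeR). These genes were found by their p-values, and no list that groups them was fixed. Without fetus 8, none of the 3 passed by edgeR, with adjusted p-values up to 0.228 for PIPOX, 0.288 for DDO and 0.331 for MTHFD2L over the fits that left out 1 library.

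The other lower genes with more than 2 counts throughout had varied roles. SELENOM, a selenoprotein of the endoplasmic reticulum, fell from 5.73 to 12.9 CPM in ET_D7 to between 0.639 and 0.842 CPM in ET_D9 (adjusted p = 0.0104, edgeR). TNFRSF10D, a decoy receptor for the death ligand TRAIL, had 4.82 to 13.6 CPM in ET_D7 and 0.406 to 1.03 CPM in ET_D9 (adjusted p = 0.0237, edgeR). PIM3, a serine/threonine kinase, had 18.5 to 27.0 CPM and 6.68 to 7.31 CPM (adjusted p = 0.0451, edgeR). VCAN, the matrix proteoglycan versican, had 9.43 to 41.1 CPM and 0.442 to 2.41 CPM (adjusted p = 0.0436, edgeR). All of them kept their direction in every fit that left out 1 library, while the call was lost in 2 such fits for SELENOM, in 3 for TNFRSF10D and VCAN and in 4 for PIM3.

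TTLL4, which adds glutamate chains to tubulin, and DNAAF11, an assembly factor of axonemal dynein, belong to the machinery of microtubules and cilia. TTLL4 had 481 to 830 counts in ET_D7 and 95 to 111 counts in ET_D9 (adjusted p = 0.0101, edgeR), and DNAAF11 had 63 to 206 counts and 11 to 25 counts (adjusted p = 0.0359, edgeR). NHS, a regulator of actin, had 5.11 to 10.9 CPM and 0.147 to 0.551 CPM (adjusted p = 0.0149, edgeR). MYCBP, a partner of the transcription factor MYC, had 6.04 to 10.3 CPM and 0.638 to 1.72 CPM (adjusted p = 0.0432, edgeR). The ranges of the groups did not overlap in any of these genes. The call was lost in 4 of the 7 fits that left out 1 library for DNAAF11, in 3 for MYCBP and in 1 each for TTLL4 and NHS, with adjusted p-values of up to 0.334, 0.332, 0.126 and 0.104 (edgeR). The remaining pair, LOC100847469 and Entrez 112447845, carry no gene name.

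The lower genes with the smallest p-values were all step genes, and their counts were nearly the same from gene to gene in ET_D9. GATA2, a transcription factor of blood stem and progenitor cells, had 750, 969, 392, 211 and 1260 counts in fetuses 1 to 5 and 1, 0 and 1 counts in fetuses 8, 9 and 10. CD247, the zeta chain of the T cell receptor, had 655, 728, 672, 235 and 627 counts and again 1, 0 and 1. CASP8, the initiator caspase of death receptors, had 299, 311, 453, 178 and 517 counts and 1, 0 and 1. Counts were pooled over the independent samples of each group and divided by their library totals. On that scale ET_D7 exceeded ET_D9 by 699 times for GATA2 (95% counting interval 193 to 5770), by 571 times for CD247 (158 to 4720) and by 373 times for CASP8 (103 to 3080). The intervals take the ET_D9 counts as random draws. Of 156 genes of this kind, 130 held the same 1, 0 and 1 counts, so the ratios and intervals are descriptive only. No p is given for GATA2, CD247 and CASP8. They passed the condition on low counts only through the ET_D7 livers, where they are high.

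The same held for AKNAD1, SLC46A2, BREH1, ADAM21, OBI1, LARGE2, TMEM236 and GRIN2C, whose counts in fetuses 8, 9 and 10 were also 1, 0 and 1. BREH1 is a retinyl ester hydrolase, LARGE2 a glycosyltransferase that acts on dystroglycan, OBI1 a ubiquitin ligase of replication origins and GRIN2C an NMDA receptor subunit. DPEP2, a dipeptidase, had 275, 279, 674, 447 and 1292 counts in ET_D7 and 1, 0 and 0 in ET_D9. Among genes with a symbol, a mean of at least 1 CPM and groups that did not overlap, the largest fitted changes were in the step genes DPEP2, ACTE1, ELAVL3, SAMD12 and RHBDD2, with ET_D7 over ET_D9 ratios from 818 for SAMD12 to 1380 for DPEP2, whose counting interval ran from 248 to 54500. The limit on ratios and intervals given above holds for them too. No common theme of these genes was fixed or tested.

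Of 592 step genes tested, 156 were low in every ET_D9 library and in no ET_D7 library. Their counts in fetuses 8, 9 and 10 were 1, 0 and 1 in 130 genes, 1, 0 and 0 in 19 and 0, 0 and 1 in 7. In the ET_D7 livers the medians over the 156 genes were 192.5, 220.5, 244.0, 209.0 and 299.0 counts in fetuses 1 to 5. The reverse pattern, low in all ET_D7 and no ET_D9 libraries, was found in 0 of the genes tested, but the condition on low counts does not let such a gene pass. Over all genes in the table, 189 held 2 counts or fewer in every ET_D9 library and at least 30 in every ET_D7 library, and 29 held the reverse. The first pattern needs low counts in 2 independent samples and the reverse in 4, so these numbers do not compare like with like. Steps of this kind were more frequent in liver than in the other organs. At 30 counts, 1219 genes had a step in liver, against 106 in heart, 109 in gonads and 34 in maternal blood.

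**Figure D3:**
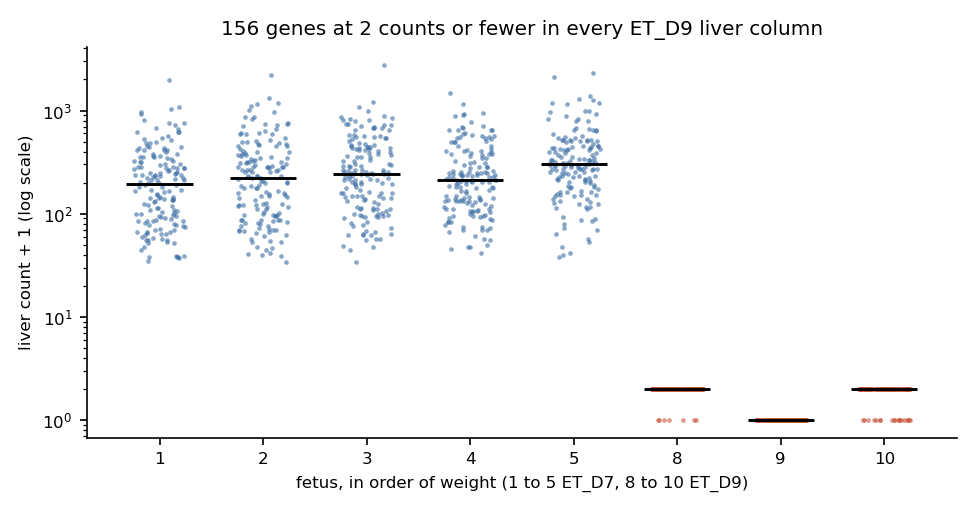
Count + 1 in each liver library (vertical axis, log scale) of the 156 genes with 2 counts or fewer in every ET_D9 library and at least 30 in every ET_D7 library, with fetuses in order of weight on the horizontal axis. Each point is a gene and each line the median, and in fetuses 8, 9 and 10 no gene exceeded 1 count.

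The same fetuses expressed many of these 156 genes in other organs. In the hearts of fetuses 8, 9 and 10, 118 of the 156 had more than 2 counts in all 3 libraries and 15 had 2 or fewer in all 3. In their gonads the numbers were 115 and 10. GATA2 had 386 to 491 counts in the 5 ET_D9 gonads and 120 to 238 in the 4 ET_D9 hearts, and CD247 had 312 to 442 and 78 to 148. Most of the 156 genes thus had more than 2 counts in heart and gonads of the fetuses whose liver columns held 2 or fewer. At least 30 counts in all 3 libraries, as in the definition of a step, were held by 59 of the 156 in heart and 86 in gonads. At the boundary of the rule, the genes just inside had lowest ET_D7 counts of 274 (SLC46A2), 275 (DPEP2 and SAMD12), 283 (KCNE3) and 286 (PLSCR4), and those just outside had 305 (VANGL2), 315 (TIGAR) and 328 (SFTPC). With the 53 genes left out by the rule put back, 4 genes were higher and 224 lower.

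Other higher genes named by their p-values did not pass the adjustment. Groups that do not overlap were a condition of naming them, which 6.37% of all genes tested met as higher in ET_D9. FOSB, a component of the AP-1 transcription factor, had 0.265 to 0.863 CPM in ET_D7 and 7.31, 5.19 and 1.97 CPM in fetuses 8, 9 and 10 (log2 fold change 3.19, adjusted p = 0.123, edgeR). SNAP91, a clathrin assembly protein, had 0.151 to 1.65 CPM and 5.26 to 6.62 CPM (2.93, adjusted p = 0.162, edgeR). RASAL2, a GTPase-activating protein of Ras, had 3.86 to 4.87 CPM and 10.8 to 11.5 CPM (1.46, adjusted p = 0.171, edgeR). MLYCD, which breaks down malonyl-CoA, had 32 to 129 counts and 180 to 291 counts, and 8.44 to 8.88 CPM in ET_D9 (1.70, adjusted p = 0.176, edgeR). KYAT1, a kynurenine aminotransferase, had 9.37 to 16.0 CPM and 23.4 to 36.9 CPM (1.29, adjusted p = 0.153, edgeR). MAP6D1 had 0.895 to 1.95 CPM and 5.31 to 6.68 CPM (2.14, adjusted p = 0.148, edgeR), and SPAG1, a dynein arm assembly factor, had 2.08 to 12.3 CPM and 19.4 to 30.6 CPM (2.06, adjusted p = 0.181, edgeR).

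In a further group, fetuses 1, 2 and 3 held 0 or 1 count. STAC had 1, 0, 0, 0 and 12 counts in fetuses 1 to 5 and 311, 184 and 48 in fetuses 8, 9 and 10. ZNF391, a zinc finger gene, had 1, 0, 0, 0 and 19 counts and 115, 229 and 261. TBX1, a T-box transcription factor of the pharyngeal region, had 1, 0, 0, 0 and 14 counts and 85, 90 and 65. RAB39B, a small GTPase, had 1, 0, 0, 26 and 0 counts and 76, 908 and 1164. PPIF, the mitochondrial cyclophilin, had 1, 0, 0, 68 and 105 counts and 358, 811 and 1088. Groups that do not overlap were again a condition of naming these 5 genes. The adjusted p-values were 0.0703 for STAC, 0.0905 for ZNF391, 0.157 for RAB39B, 0.225 for TBX1 and 0.263 for PPIF (edgeR).

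Gene lists for the cell types and pathways of fetal liver were read by their counts of calls. In 34 of 36 lists, 0 members passed the adjustment, and the only member called was ROPN1L, in the lists of motile cilia markers and of sperm fibrous sheath partners. Of 709 members tested, 14 were higher (1.97%) and 22 lower (3.10%) at an unadjusted p-value under 0.05, beside 1.85% and 6.01% of all genes tested. In 25 of the 36 lists the median log2 fold change lay within 0.2 of 0.

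**Figure D4:**
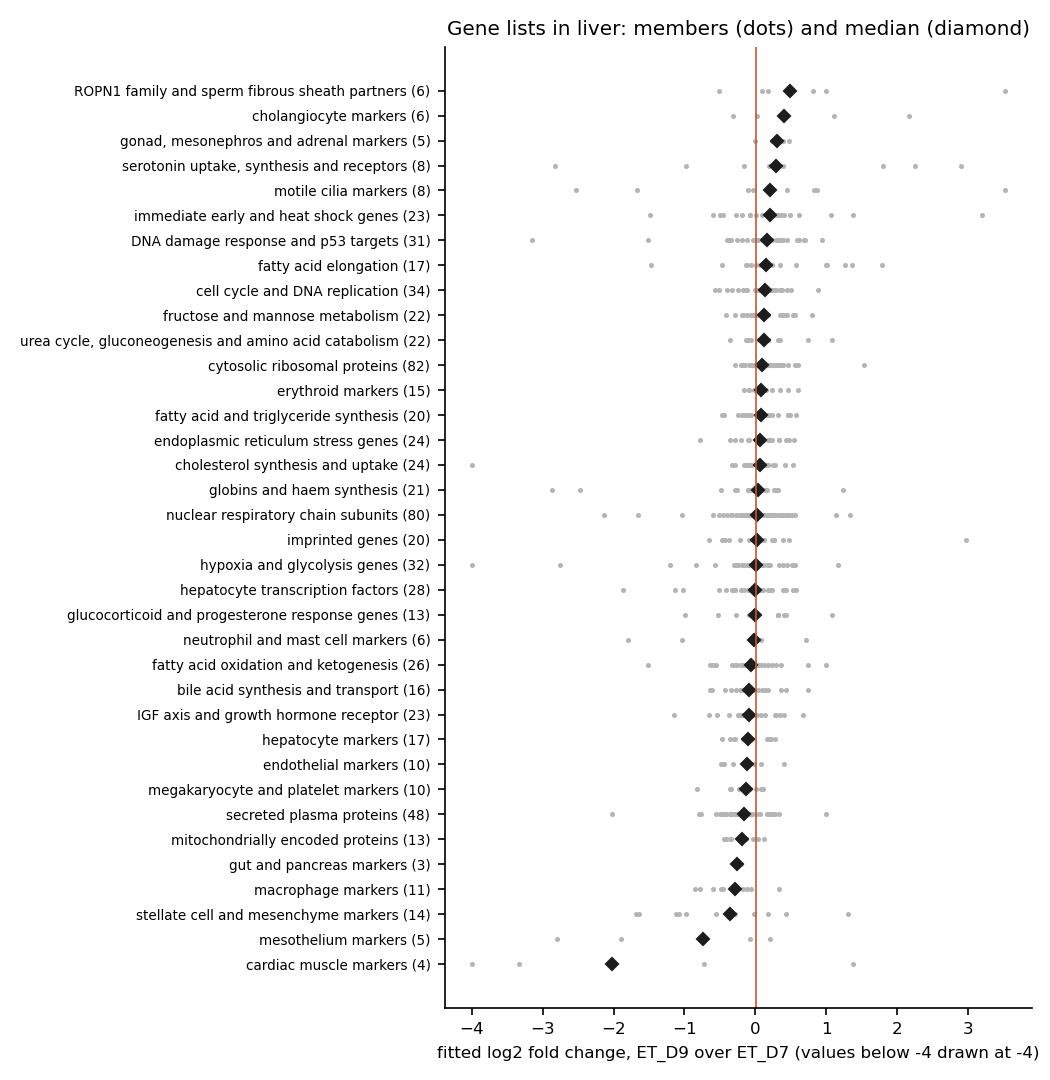
Fitted log2 fold change, ET_D9 over ET_D7 (horizontal axis, log2 scale), of the tested members of 36 gene lists (grey dots) with each list's median (black diamond) and, in brackets, its number of members tested. The red line is the median of all genes tested, 0.011, and most diamonds lie close to it.

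Hepatocyte markers had a median log2 fold change of -0.098 over 17 genes, secreted plasma proteins -0.163 over 48 and hepatocyte transcription factors -0.005 over 28, with 0 called by edgeR. Urea cycle, gluconeogenesis and amino acid catabolism genes had a median of 0.120 over 22 genes. There KMO, the kynurenine hydroxylase of tryptophan breakdown, had 10.7 to 19.7 CPM and 24.4 to 33.6 CPM (adjusted p = 0.246, edgeR). Bile acid genes had a median of -0.083 over 16.

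The globins were of interest because embryonic and fetal forms mark successive waves of red cells. HBE1, an embryonic beta-type globin, stood at 206, 232, 534, 311 and 761 CPM in fetuses 1 to 5 and at 22.0, 61.5 and 98.7 CPM in fetuses 8, 9 and 10. HBZ, the embryonic alpha-type globin, stood at 395, 417, 1240, 705 and 1400 CPM and at 67.8, 163 and 257 CPM. All ET_D9 livers lay below all ET_D7 livers in both genes. The log2 fold change was -2.87 for HBE1 (standard error 0.690, adjusted p = 0.131, edgeR) and -2.47 for HBZ (standard error 0.651, adjusted p = 0.178, edgeR), so neither passed. With all 8 columns the adjusted p of HBE1 was 0.0391 (edgeR), but that fit counts related columns as separate samples. HBG, the fetal globin, overlapped fully, at 5380 to 8100 CPM in ET_D7 and 2880, 6760 and 10800 CPM in ET_D9. Globin genes are close copies of each other and the counting options for shared reads are not given in the sources used here, so their split is uncertain.

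The embryonic globins were also measured in the other organs. HBE1 ranged from 274 to 488 CPM in 4 ET_D7 gonads and from 457 to 1090 CPM in 5 ET_D9 gonads, and from 490 to 2670 CPM and 536 to 1530 CPM in the hearts. The group difference of HBE1 was lower in liver than in gonads by 4.14 on the log2 scale (standard error 0.783, adjusted p = 0.00336, edgeR), and that of HBZ by 2.81 (standard error 0.720, adjusted p = 0.0290, edgeR). Against the heart, neither difference passed (adjusted p = 0.113 for HBE1 and 0.212 for HBZ, edgeR). Erythroid markers as a list had a median of 0.084 over 15 genes in liver, and their summed level was 6588 to 10670 CPM in ET_D7 and 8787 to 11160 CPM in ET_D9.

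**Figure D5:**
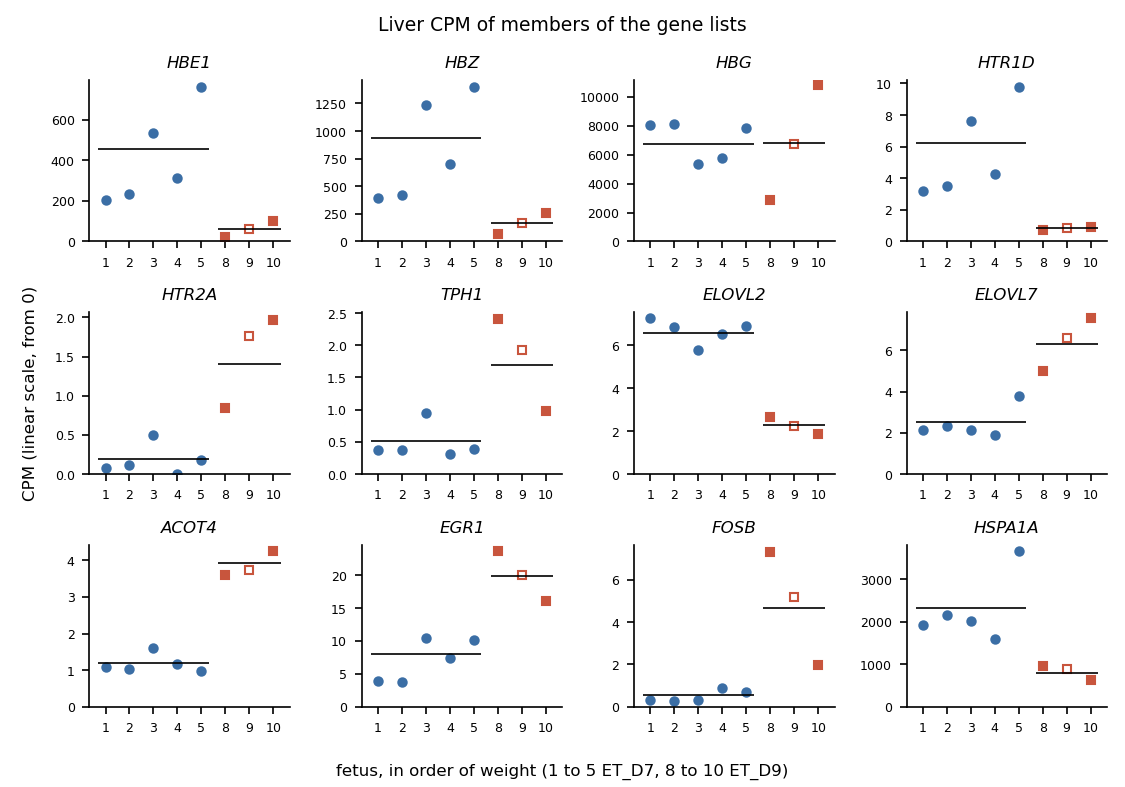
CPM in liver (vertical axes, linear and from 0) of 12 genes named from the lists, by fetus in order of weight, with blue circles for ET_D7, red squares for ET_D9, an open square for fetus 9 and lines for group means over independent samples. HBE1, HBZ, HTR1D, ELOVL2 and HSPA1A are lower in all ET_D9 livers, HBG overlaps, and none of the 12 passed the adjustment.

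Among genes of serotonin uptake, synthesis and reception, 8 were tested, with a median of 0.294 and values spread from -2.831 to 2.898. HTR1D, a serotonin receptor, had 3.21, 3.52, 7.62, 4.25 and 9.80 CPM in ET_D7 and 0.755, 0.879 and 0.934 CPM in ET_D9 (adjusted p = 0.0998, edgeR). HTR2A, another receptor, had 2, 3, 10, 0 and 7 counts in ET_D7 and 29, 42 and 40 in ET_D9 (adjusted p = 0.609, edgeR). TPH1, the rate-limiting enzyme of serotonin synthesis outside the brain, had 0.308 to 0.952 CPM and 0.983 to 2.41 CPM (adjusted p = 0.723, edgeR). Receptors thus stood on both sides. With all 8 columns, a fit that counts related columns as separate samples, only HTR1D passed beside SLC6A4 (adjusted p = 0.0152, edgeR). The 6 sperm fibrous sheath partners tested had a median of 0.488.

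Lipid genes were read in 4 lists. Cholesterol genes had a median of 0.061 over 24, fatty acid and triglyceride synthesis 0.080 over 20, and fatty acid oxidation and ketogenesis -0.067 over 26, with 0 called by edgeR. Of 17 elongation genes, 4 were higher and 1 lower at an unadjusted p-value under 0.05, beside 1.85% and 6.01% of all genes tested, with a median of 0.148 and 0 called. ACOT4, a peroxisomal acyl-CoA thioesterase, had 0.974 to 1.60 CPM in ET_D7 and 3.60 to 4.27 CPM in ET_D9 (adjusted p = 0.273, edgeR). ELOVL7 had 1.91 to 3.79 CPM and 4.99 to 7.57 CPM, and HACD1, a dehydratase of the elongation cycle, had 4.62 to 10.5 CPM and 14.7 to 16.8 CPM. ELOVL2, the elongase of very long polyunsaturated chains, had the opposite sign, with 5.81 to 7.29 CPM and 1.87 to 2.67 CPM (adjusted p = 0.280, edgeR).

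Genes of stress and growth were mixed. Of 23 immediate early and heat shock genes, 3 were higher and 1 lower at an unadjusted p-value under 0.05, beside the same 1.85% and 6.01%. EGR1 had 3.75 to 10.5 CPM in ET_D7 and 16.1 to 23.7 CPM in ET_D9, whereas HSPA1A, the inducible heat shock protein, had 1590 to 3670 CPM and 637 to 961 CPM (adjusted p = 0.261 and 0.225, edgeR). CDKN1A, the cell cycle inhibitor p21, had 36, 40, 42, 33 and 23 counts and 6, 4 and 3 counts. No p is given for CDKN1A, since it passed the condition on low counts only through the ET_D7 livers, where it is high. The 31 DNA damage and p53 genes had a median of 0.169. SLC2A3, a glucose transporter, had 23.8 to 41.5 CPM and 10.7 to 13.8 CPM (adjusted p = 0.194, edgeR), in a list of 32 hypoxia and glycolysis genes with a median of 0.010. The 34 cell cycle genes had a median of 0.138, the 24 endoplasmic reticulum stress genes 0.064, the 13 glucocorticoid and progesterone response genes -0.006 and the 22 fructose and mannose genes 0.124.

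The insulin-like growth factors and imprinted genes act on fetal growth. IGF2, the main fetal growth factor, had 2630 to 4580 CPM in ET_D7 and 2350 to 2690 CPM in ET_D9, and the 23 genes of the axis had a median of -0.091 with 0 called by edgeR and 0 at an unadjusted p-value under 0.05. H19, the imprinted RNA beside IGF2, had 8060 to 14400 CPM and 5850 to 6520 CPM (unadjusted p = 0.123, edgeR, so not called). PHLDA2, an imprinted gene that restrains placental growth, had 2, 5, 0, 0 and 14 counts in ET_D7 and 45, 67 and 19 in ET_D9 (adjusted p = 0.692, edgeR). The 20 imprinted genes had a median of 0.027. Ribosomal protein genes had a median of 0.098 over 82, nuclear respiratory chain genes 0.027 over 80 and mitochondrially encoded genes -0.187 over 13.

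Markers of other cell types and library measures were compared between the groups by exact two-sided permutation over the 15 assignments of 4 and 2 samples, which cannot give a p below 0.133. After adjustment over 15 measures, 0 passed. Mitochondrially encoded genes took 16.49% to 36.83% of counts in ET_D7 and 16.26% to 32.43% in ET_D9. Only the 11 macrophage markers did not overlap between the groups, with summed levels of 204.2 to 295.8 CPM in the ET_D7 libraries and 184.4 to 193.2 CPM in ET_D9 (exact p = 0.133, adjusted p = 0.889). C1QC, a complement subunit of macrophages, had 23.7 to 31.9 CPM and 15.0 to 20.2 CPM.

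Cardiac muscle markers varied widely within the ET_D7 group, at 8.174, 9.494, 1444, 464.5 and 335.1 CPM in fetuses 1 to 5 and 74.21, 46.37 and 8.831 CPM in fetuses 8, 9 and 10 when the 8 markers were summed. ACTC1, cardiac actin, had 1, 0, 31997, 8905 and 10825 counts in the ET_D7 livers and 1039, 390 and 21 in the ET_D9 livers, and 1 of the 8 markers was at 0 in every liver. The part of this signal in the gene results was not tested. Collagen and stellate cell markers had 478.2 to 629.8 CPM in ET_D7 and 432.3 to 488.4 CPM in ET_D9 in sum, and 11 of the 14 had a negative log2 fold change, with a median of -0.358. DES, the muscle and stellate cell filament desmin, stood at -1.12 and COL1A1, a collagen chain, at -0.98 on that scale, and 0 of the 14 passed by edgeR. The marker with the smallest p was LRAT, the retinol-storing enzyme of stellate cells, at 2.65 to 4.71 CPM and 8.27 to 10.5 CPM (adjusted p = 0.290, edgeR). Motile cilia markers, among them ROPN1L, summed to 11.22 to 34.57 CPM and 15.09 to 19.86 CPM. Summed levels of cholangiocyte, endothelial, megakaryocyte, neutrophil and mast cell, mesothelium, gut and pancreas, and gonad, mesonephros and adrenal markers overlapped between the groups. In the main test the medians of these lists were 0.397, -0.122, -0.135, -0.022, -0.744, -0.264 and 0.307.

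The group difference in liver was set against that in the other organs of the same fetuses. It departed from the heart in 547 of 14916 genes, 128 more positive in liver (0.858%) and 419 more negative (2.81%), and from the gonads in 557 of 15527 genes, 132 more positive (0.850%) and 425 more negative (2.74%) by edgeR. Step genes made up 193 of the 547 and 233 of the 557. The organs came from the same fetuses, which that test does not take into account, and with limma-voom and the fetus as a block 91 and 167 genes passed. ANKRD26 differed from its change in the gonads by 2.31 (standard error 0.549, adjusted p = 0.0184, edgeR), where it stood at 98.7 to 271 CPM, and against the heart the difference of 1.54 did not pass (adjusted p = 0.147, edgeR). VCAN, at 492 to 1190 CPM in gonads and 294 to 486 CPM in hearts, was lower in ET_D9 in liver beyond its difference in either organ, by 3.16 and 3.65 on the log2 scale (adjusted p = 0.00375 and 0.000899, edgeR). With the fetus as a block, ANKRD26 against the gonads (adjusted p = 0.0637, limma) and VCAN against either organ (0.106 and 0.0637) no longer passed, while HBE1 and HBZ against the gonads (0.0151 and 0.0412) and ROPN1L against the heart (0.0213) did.

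The study also drew a list of liver genes along fetal weight from these samples. Of its 459 genes, 445 were tested here, and all 445 had a positive log2 fold change, with a median of 0.661, but 1 passed the adjustment and 72 an unadjusted p-value under 0.05, beside 0.0242% and 1.85% of all genes that were higher by these criteria. Since the list was chosen on these libraries and weight separates the groups, its direction is not independent evidence. In a fit with fetal weight as a covariate beside the group, 0 genes were higher and 8 lower by edgeR, against 113 and 487 unadjusted.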

How the data were processed

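RNA from fetal organs was sequenced as stranded, paired-end mRNA libraries. The authors trimmed reads with Trimmomatic, mapped them with STAR 2.7.0b to ARS-UCD1.3 and counted them per gene with featureCounts of Subread 2.0.3, and they deposited whole-number counts, which are not normalized. Counting options are not given in the sources used here. Symbols came from RefSeq by Entrez identifier (31630 of 35092 matched).

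The counts were tested with edgeR 4.0.16 (TMM normalization, quasi-likelihood test, Benjamini-Hochberg adjustment over all genes tested, threshold 0.05) in R 4.3.3, and liver levels of single genes are CPM scaled by TMM. Levels of heart and gonads, summed marker levels, ratios of step genes and the bound for a count of 0 are per library total. Standard errors are the log2 fold change divided by the square root of F. The design had named 8 liver libraries; because some columns were not independent, the main test used 6 samples, with the rounded mean of fetuses 1 and 2 as 1 sample and fetus 9 left out. In the organ test, 1 heart and 1 gonad column that were weighted sums of others were likewise left out. Alternatives used DESeq2 1.42.0 and limma 3.58.1, other normalizations, filters, covariates and left-out libraries. Library measures used exact permutation in scipy 1.17.1. The functions were tested on simulated data.

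Named genes were the markers ROPN1L and SLC6A4; the 12 smallest p-values in each direction among genes with a symbol, a mean of at least 1 CPM and groups that do not overlap; under the same conditions, the 5 largest changes in each direction among genes with an adjusted p under 0.05, or an unadjusted p under 0.01 where fewer passed; and, from each list, up to 4 members with the smallest p and the most abundant. The called genes with more than 2 counts in every library, such as GLYAT and TMPRSS4, were named after their values were seen. Members and lists were chosen with earlier results of these data known. Samples are labelled as separate fetuses, but 1 sample of the main test is the mean of the columns of fetuses 1 and 2. These columns matched within counting error at the median over genes, but not in every gene. P-values measure the spread between the samples used, from 1 study. Whether each column stands for its own fetus was not tested. Counting intervals cover counting error only.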

Additional observations from a re-analysis of the deposited data

Results flagged for a closer look

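Among 88 named genes, 1 ET_D7 sample of 4 stood apart from the other 3 in 7 genes by Dixon's test, where chance gives about 1 in 20. Fetus 5 stood apart at 0.316 CPM for STAC, 0.5 CPM for ZNF391 and 0.369 CPM for TBX1. Fetus 4 stood apart at 1.60 CPM for RAB39B and 6.04 CPM for MYCBP. Fetus 3 stood apart at 0.952 CPM for TPH1 and 7.92 CPM for MPO.

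The difference between ET_D9 and ET_D7 in liver departed from that in heart in 547 genes and from that in gonads in 557 genes (edgeR, test of the difference itself, adjusted p under 0.05). The values that follow are the log2 difference in liver minus that in the other organ, for named genes that passed and were no step genes. Against the gonads, liver was more negative by values of -3.92 for CDKN1A, -2.78 for DDO, -2.89 for DNAAF11, -4.29 for GLYAT, -4.14 for HBE1, -2.81 for HBZ and -2.96 for MTHFD2L. It was also more negative there, at -2.81 for MYCBP, -3.79 for NHS, -2.95 for PIPOX, -4.40 for SELENOM, -3.57 for TNFRSF10D, -2.85 for TTLL4 and -3.16 for VCAN. Against the gonads, liver was more positive by values of 1.72 for ACOT4, 2.31 for ANKRD26, 2.19 for MAP6D1, 1.75 for RASAL2, 3.22 for SNAP91, 2.11 for SPAG1 and 5.99 for STAC. It was also more positive there, at 5.26 for TMPRSS4 and 6.10 for ZNF391. Against the heart, liver was more negative by values of -3.39 for CDKN1A, -2.48 for DDO, -3.03 for DNAAF11, -2.26 for MSLN, -3.85 for MTHFD2L, -2.79 for MYCBP and -3.16 for NHS. It was also more negative there, at -2.10 for PDK4, -4.24 for PGK1, -3.19 for SELENOM, -1.26 for SLC2A3, -4.93 for TNFRSF10D, -2.62 for TTLL4 and -3.65 for VCAN. Against the heart, liver was more positive by values of 2.38 for MAP6D1, 1.87 for MLYCD, 2.92 for PHLDA2, 4.33 for ROPN1L, 3.15 for SNAP91, 8.37 for STAC and 2.72 for TPH1. It was also more positive there, at 4.77 for ZNF391. CDKN1A and PGK1 held fewer than 10 counts in every ET_D9 liver. They passed the condition on low counts only through the ET_D7 livers, so their place among these genes is no support for a difference. The test between organs does not take into account that the organs came from the same fetuses. With limma-voom and the fetus as a block, 16 of these 23 differences against the gonads and 11 of the 22 against the heart passed. Those that did not were, against the gonads, ANKRD26, CDKN1A, NHS, SELENOM, TMPRSS4, TNFRSF10D and VCAN, and against the heart, CDKN1A, MSLN, NHS, PDK4, PGK1, PHLDA2, SELENOM, SLC2A3, TNFRSF10D, TPH1 and VCAN. The cause was not tested.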

How the results depend on the processing

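The main counts were 4 higher and 184 lower genes, and 161 of the lower genes held 2 counts or fewer in every ET_D9 library. The number of higher genes was 25 with DESeq2, 0 with limma-voom, 2 with DESeq2 size factors, 2 with upper quartile normalization, 36 with no filter on low counts, 29 with filterByExpr, 0 with fetal weight as a covariate and 1 with linear weight in place of the group. It was 283 with all fetal organs in 1 fit, and, in alternatives chosen after seeing the data, 74 with 8 columns, 23 without genes of 2 counts or fewer and 10 without fetuses 1 and 2. The number of lower genes was 549 with DESeq2, 0 with limma-voom, 8 with the weight covariate, 53 with linear weight and 659 with all organs, and 536, 96 and 325 in those same added alternatives, and 21 with step genes left out. Leaving out 1 library gave 0 to 10 higher and 91 to 250 lower genes, with the lowest of both without fetus 8 (ET_D9). The most higher genes came without fetus 5 and the most lower genes without fetus 4. Against the heart, 547 genes became 91 with limma-voom and the fetus as a block, 933 with DESeq2, 1469 with 26 columns and 300 to 712 without 1 liver library. Against the gonads, 557 became 167 with the fetus block, 885, 1171 and 330 to 699. With the weight covariate the log2 fold change reversed to -0.26 for SLC6A4, -1.01 for ZNF391, -5.85 for RAB39B, -0.93 for SPAG1, -4.27 for PPIF, -2.09 for HBG, -0.20 for HTR2A, 0.35 for ALB, 1.13 for SERPINA1, -0.18 for KLF1, 1.72 for TNNT2 and 0.30 for C1QC. HBG also reversed to -0.14 with limma-voom, -0.05 with 8 columns, -0.05 without fetus 3, -0.01 without fetus 4 and -1.16 without fetus 10, SERPINA1 to 0.05 without fetus 10 and EPOR to -0.13 without fetus 8. Leaving out 1 library gave an HBG log2 fold change of -1.16 to 0.70, a SERPINA1 log2 fold change of -0.94 to 0.05 and an EPOR log2 fold change of -0.13 to 1.07. Over named genes and alternatives, 1618 values kept direction and side of the threshold, 150 lost and 101 gained the call, and 19 reversed. The causes were not tested. No paired analysis was possible because replicate numbers in the labels do not pair fetuses of the transfer groups. With 2 ET_D9 samples, differences within the spread of fetuses are not detectable here.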
